A study of Mus musculus with 6 samples.

Results

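The transcripts of 10 genes of the NF-κB system were examined in macrophages from wild type (WT) animals and from progranulin knockout (PGRN KO) animals: the 5 subunits Nfkb1, Nfkb2, Rel, Rela and Relb, and 5 genes grouped as inhibitors, Nfkbia, Nfkbib, Nfkbie, Nfkbiz and Tnfaip3. They were picked by gene symbol from the 54532 genes of the deposited table, and all 10 were among the 8882 genes whose mean level was high enough to be tested. With PGRN absent, Nfkb1 and Nfkbiz fell, to 69.9% and 55.1% of the WT mean. None of the 10 rose. Rel and Tnfaip3 were lower in each PGRN KO library than in any WT library without passing the test across all genes. Over all tested genes, 13.8% passed as lower in PGRN KO and 27.6% lay wholly below WT. Rela, Nfkb2, Relb, Nfkbia and Nfkbie overlapped between the genotypes, with estimated differences of less than 0.2 on the log2 scale. Nfkbib overlapped too and did not pass, with a larger estimated difference of -0.44.

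The study asked how PGRN, a secreted glycoprotein encoded by Grn, shapes the response of macrophages to the yeast Candida albicans. The labels give the cells as macrophages of the peritoneal cavity of C57BL/6J mice, plated overnight at 2000000 cells per well and then exposed to live fungus at 1 per macrophage for 6 h, whereas the study's text describes the sequenced cells as grown from bone marrow and gives another ratio of fungus to macrophages, and the labels were followed. The 3 WT libraries (replicates 1, 2 and 3, which the titles also call control) and the 3 PGRN KO libraries (replicates 4, 5 and 6) all came from challenged cells, so no value without the fungus was analysed here. Polyadenylated RNA was sequenced to 15996786 to 17551619 counted fragments per library, and each gene was given in FPKM, the fragments scaled to gene length and library size.

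The knockout was present in every cell of the mouse, and the age of the mice was not given. The study bought the PGRN KO mice from the Jackson Laboratory and the WT mice from a university colony, so that genotype and source of the mice cannot be told apart. The labels do not say whether libraries of one genotype came from separate mice or cultures, and p-values therefore measure the spread between these libraries, which may be technical. Grn stood at 324, 337 and 325 FPKM in WT and at 0.0166, 0 and 0.0167 FPKM in PGRN KO, as the labels have it. All 7 macrophage markers were detected, with summed levels of 7091 to 7423 FPKM in WT and 7235 to 9725 in PGRN KO. Most of the sum was Lyz2 (5657 to 5851 and 5873 to 8135 FPKM). By the test described below, Csf1r was lower in PGRN KO by mean (32.5 to 24.7 FPKM) and Mertk higher (1.41 to 3.24). The other 5 did not pass. Summed markers of cells other than macrophages were far below those of macrophages. By mean in WT, S100a8 (49.98 FPKM) was above Csf1r, and Ccr7 (28.9 FPKM) was below it. All markers of these other cells that were high enough to be tested passed. S100a8 and Ccr7 were lower in PGRN KO (log2 fold changes of -1.07 and -0.77, limma adjusted p = 0.00142 and 0.00775). Cd79a, Cd79b, Cma1 and Tpsb2 were higher (1.29, 0.71, 1.53 and 1.55, limma adjusted p = 0.00327, 0.0366, 0.00175 and 0.0025). Summed B cell markers were 1.501 to 2.50 FPKM in WT and 6.62 to 8.92 in PGRN KO, and summed mast cell markers 2.23 to 3.19 and 9.31 to 13.9 (with Kit lower by mean in PGRN KO, 0.345 to 0.210). Summed neutrophil markers were 48.8 to 53.2 and 21.4 to 26.3 (nearly all of it S100a8, with Ly6g and Elane at 0 in all 6 libraries and no other above 0.443). Summed dendritic cell markers were 27.3 to 34.6 and 15.8 to 19.3 (mostly Ccr7, with Zbtb46 higher by mean in PGRN KO). Those of T and NK cells (0.783 to 0.949 and 1.29 to 1.62) and of mesothelial cells and fibroblasts (0.967 to 1.09 and 1.80 to 3.24) were near 0. Among the T and NK cell markers, Ncr1 and Klrb1c were lower by mean in PGRN KO and Cd3e, Cd3d and Cd3g higher. Among the mesothelial and fibroblast markers, Msln, Upk3b and Krt19 were lower by mean in PGRN KO and Col1a1, Col3a1 and Dcn higher. Those of resident peritoneal macrophages stood at 24.8 to 27.2 and 26.7 to 34.3. Of these, Lyve1 (4.28 to 8.79 FPKM by mean) and Icam2 (3.10 to 5.10) passed as higher in PGRN KO. Gata6 and Prg4 did not pass, and Timd4 was too low to be tested (0.149 and 0.0258 FPKM). The part of other cells in the differences was not tested. PGRN KO replicate 6 stood apart from the other libraries, with deviations that correlated with gene length at a Spearman coefficient of -0.47 across the tested genes, against 0.15 to 0.24 in the other 5 libraries.

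NF-κB proteins bind DNA as pairs. Rela, Rel and Relb carry the domain that activates transcription, while Nfkb1 and Nfkb2 encode long precursors that are cut to short DNA-binding partners and that, uncut, hold the pairs in the cytoplasm. The IκB proteins encoded by Nfkbia, Nfkbib and Nfkbie cover the nuclear import signal until the IκB kinase marks them for destruction, and several of these genes are themselves switched on by NF-κB, which closes a feedback loop. Nfkbiz encodes IκBζ, which acts in the nucleus and, despite its family name, helps to activate a set of secondary response genes. Tnfaip3 encodes an enzyme that edits ubiquitin chains and shuts off the receptor complexes upstream. In macrophages the fungal wall reaches this system through C-type lectin receptors and the Card9-Bcl10-Malt1 complex, as well as through Toll-like receptors.

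Promoter sequence is shown for 4 of the genes because transcripts of NF-κB genes are often under NF-κB control themselves. RefSeq promoter windows of GRCm38.p6, covering 250 bases before to 50 after a start, were matched for 7 of the 10 genes. The classical 10-base NF-κB consensus, searched on both strands, occurred in 5 of these 7 (Nfkb2, Rel, Nfkbia, Nfkbie and Tnfaip3) and in 4.51% of all 32851 windows, or 5.14% of all 27025 genes. Rela and Nfkbib had no match in their windows, and no window was matched for Nfkb1, Relb and Nfkbiz. The stretches below run 5′ to 3′ along the gene's strand towards the start, with the bases that match the consensus in capitals.
Tnfaip3, chr10:19015411-19015520, minus strand: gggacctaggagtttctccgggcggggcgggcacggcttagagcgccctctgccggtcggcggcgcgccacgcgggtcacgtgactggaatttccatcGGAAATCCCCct
Rel, chr11:23770971-23771079, minus strand: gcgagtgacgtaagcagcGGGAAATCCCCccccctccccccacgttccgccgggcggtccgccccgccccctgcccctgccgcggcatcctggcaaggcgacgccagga
Nfkbia, chr12:55492648-55492757, minus strand: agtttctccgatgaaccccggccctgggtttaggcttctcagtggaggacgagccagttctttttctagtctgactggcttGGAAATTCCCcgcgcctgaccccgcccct
Nfkbie, chr17:45555590-45555699, plus strand: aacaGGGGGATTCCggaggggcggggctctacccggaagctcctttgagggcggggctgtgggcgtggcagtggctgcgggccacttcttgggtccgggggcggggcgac
The match lay at -12 to -3 from the start in Tnfaip3, which had another at -125 to -116, at -29 to -20 in Nfkbia and at -106 to -97 in Nfkbie. In Rel the capitals span a pair of overlapping matches, at -92 to -83 and -91 to -82. Nfkb2 held matches in 3 windows, the first of them with matches at -39 to -30, -38 to -29 and -11 to -2. A match describes the letters of the window and not a bound site.

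The levels of the 10 genes spanned a wide range and were ordered by FPKM, which is per length of the gene model. For Nfkb1 this length, 12061 bases, equals all its annotated exon bases, which may exceed the length of a single transcript. The order, and the shares and ratios given below, therefore depend on the gene models used. In WT the mean was highest for Nfkbia, at 711 ± 161 FPKM (SD, n = 3), followed by Nfkbiz at 418 ± 83.1. Nfkb2, Nfkbib and Tnfaip3 came next, with means of 220.05, 184 and 182 FPKM, and neighbours among these overlapped over libraries. Nfkb1 and Rel also overlapped, at 85.2 and 76.7 FPKM, whereas Rela at 61.9 FPKM lay below both. Nfkbie at 25.1 and Relb at 14.6 FPKM were the lowest, each without overlap with its neighbour. Nfkbia and Nfkbiz, both grouped here as inhibitors, thus held the first and second places, although the product of Nfkbiz helps to activate genes. All but 1 of the subunits stood in the lower part of the order, as did Nfkbie.

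The order in PGRN KO was much the same, with the following differences. Nfkbiz, at 229.9 ± 36.5 FPKM (SD, n = 3), overlapped with Nfkb2 at 225 ± 24.4, which it had exceeded without overlap in WT. Within libraries, Nfkbiz was below Nfkb2 only in PGRN KO replicate 6 (198 against 246 FPKM). Rela, at 64.7 ± 8.27 FPKM, moved ahead of Nfkb1 and Rel by mean, although its range overlapped with that of Nfkb1, its neighbour. Rela was above Nfkb1 only in PGRN KO replicate 6 (73.3 against 52.4 FPKM) and below it in replicates 4 and 5. It was above Rel in every PGRN KO library. Nfkb2 and Nfkbib, which overlapped in WT, did not overlap in PGRN KO.

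**Figure D1:**
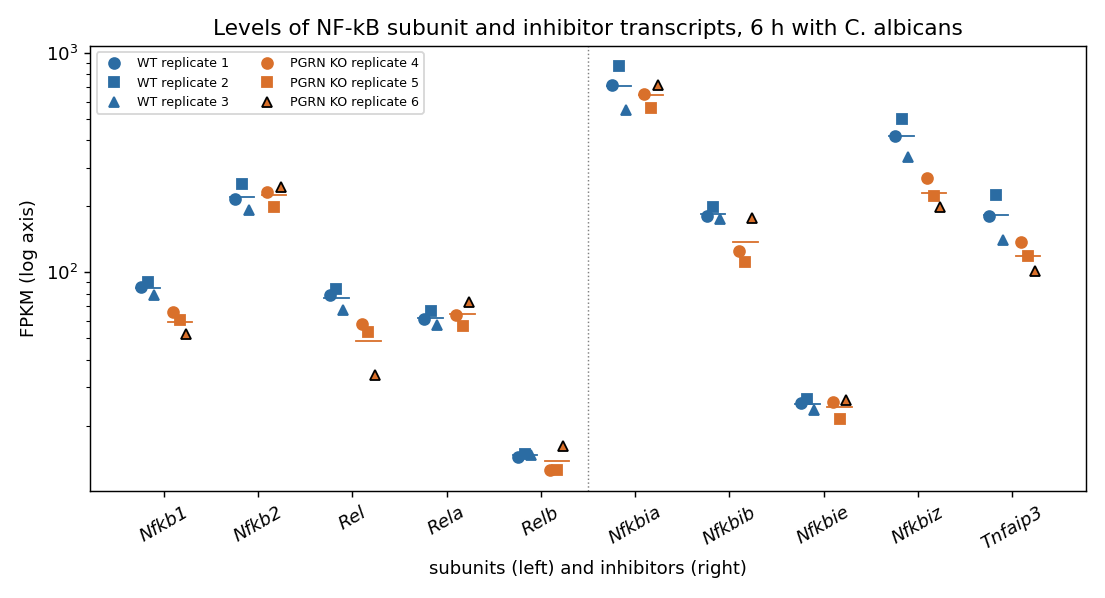
Level of each gene in FPKM (log axis) in the 3 WT libraries (blue) and the 3 PGRN KO libraries (orange, replicate 6 outlined in black), with horizontal lines at the group means, subunits left of the dotted line and inhibitors right of it. The PGRN KO points lie below every WT point for Nfkb1, Rel, Nfkbiz and Tnfaip3, and the groups overlap for the other 6 genes.

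Genotypes were compared by limma on log2(FPKM + 1), with p-values adjusted by the Benjamini-Hochberg method over all 8882 genes and a threshold of 0.05. Of the 10 genes, 2 passed this threshold and both were lower in PGRN KO, where 24.2% of all tested genes passed it, 13.8% lower and 10.4% higher. By count this is close to the background. At an unadjusted p under 0.05, 5 of the 10 were lower, where 22.3% of all tested genes were lower. With limma voom on counted fragments 2 were lower and 0 higher, where 8.55% of all tested genes were lower and 1250 of 8882 higher. The PGRN KO libraries lay wholly below the WT libraries for 4 of the 10 genes and wholly above for none, while over all tested genes 27.6% lay wholly below and 48.8% did not overlap in either direction. The fitted log2 fold change was below 0 for 8 of the 10 (its sign turned for Nfkbie on the TPM scale, with quantile normalization and with voom, and for Relb with voom), and the median over the 10 was -0.28, against -0.03 over all tested genes. The median was -0.09 for the 5 subunits and -0.44 for the 5 inhibitors. The split of the background itself depended on scaling, since 42.8% of the called genes were higher in PGRN KO as deposited, 60.6% on a TPM scale and 62.2% with voom on counted fragments. In libraries of whole cultures, fewer cells of a type and less RNA per cell cannot be told apart.

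Among the subunits, Nfkb1 was the one that passed the threshold. The estimated fall of Rel, described below, was larger (-0.68 against -0.51 on the log2 scale) at a limma adjusted p of 0.0528. Nfkb1 (chr3:135584655-135691547, minus strand, GRCm38) encodes the precursor of the most common DNA-binding partner of Rela and Rel. It was measured at 86.0, 90.4 and 79.1 FPKM in WT and at 65.6, 60.6 and 52.4 FPKM in PGRN KO. Each PGRN KO library was below each WT library, and replicate 6 was the lowest. The group means were 85.2 ± 5.69 and 59.5 ± 6.68 FPKM (SD, n = 3 each), and the difference on the log2 scale was -0.51 ± 0.11 (SE, 95% interval -0.78 to -0.25) with a limma adjusted p of 0.0193. In the exact two-sided permutation test, p was 0.1, below which 3 libraries against 3 cannot go. The call rested in part on single WT libraries, as the adjusted p was 0.0906, 0.0875 and 0.0529 without WT replicates 1, 2 and 3, and it was 0.0765 on the TPM scale. It was 0.00633 without PGRN KO replicate 6, with a log2 fold change of -0.43. Nfkb1 has the longest gene model of the 10, at 12061 bases, and when each library was corrected for gene length and GC content its log2 fold change shrank to -0.32, the smallest in size of all alternatives, with an adjusted p of 0.0213. Over all 18 alternatives the p for Nfkb1 ranged from 0.00137 to 0.0906, and 14 of them passed.

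Rel (chr11:23736847-23770970, minus strand) encodes c-Rel, the subunit most restricted to blood cells. It was measured at 79.0, 83.7 and 67.5 FPKM in WT and at 58.4, 53.4 and 34.0 FPKM in PGRN KO. The groups did not overlap, and PGRN KO replicate 6 lay far below the other 2. The means were 76.7 ± 8.34 and 48.6 ± 12.9 FPKM (SD, n = 3 each), and the log2 fold change of -0.68 ± 0.21 (SE, 95% interval -1.17 to -0.19) had a limma adjusted p of 0.0528. The exact permutation p was 0.1. Without PGRN KO replicate 6 the difference was smaller, at -0.45, and the adjusted p was 0.0158. With the same correction it was -0.54 with an adjusted p of 0.0259. The p for Rel ranged from 0.00493 to 0.167 over the 18 alternatives, of which 7 passed.

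Rela, Nfkb2 and Relb did not pass the test. Rela (chr19:5637483-5648130, plus strand), the main activating subunit, was measured at 61.3, 66.6 and 57.8 FPKM in WT and at 64.0, 56.8 and 73.3 FPKM in PGRN KO. The log2 fold change of Rela was 0.06 ± 0.12 (SE, 95% interval -0.22 to 0.34, limma adjusted p = 0.745). Nfkb2 (chr19:46304737-46312090, plus strand), whose precursor serves the slower non-canonical branch, was measured at 215, 253 and 192 FPKM in WT and at 232, 198 and 246 FPKM in PGRN KO. The WT and PGRN KO values of Nfkb2 interleaved, with a log2 fold change of 0.04 ± 0.14 (SE, 95% interval -0.29 to 0.36, limma adjusted p = 0.864). Exons of Nfkb2 share 531 bases with AC114539.1 and 299 with Psd on the opposite strand, and since the sources used here do not give the strand setting of the counting, reads of these genes cannot be told apart. Relb (chr7:19606217-19629438, minus strand), the activating partner in the non-canonical branch, was measured at 14.4, 14.8 and 14.7 FPKM in WT and at 12.5, 12.6 and 16.2 FPKM in PGRN KO. PGRN KO replicates 4 and 5 were below all WT values of Relb and replicate 6 above them. Its log2 fold change was -0.09 ± 0.11 (SE, 95% interval -0.36 to 0.18, limma adjusted p = 0.586), and without replicate 6 it was -0.21 with an adjusted p of 0.0191, one of 3 alternatives of 18 that passed, over which p ran from 0.0191 to 0.996.

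The make-up of the subunit transcripts was described as shares of their summed FPKM, which was 458.5 ± 49.0 in WT against 412 ± 26.6 for PGRN KO (SD, n = 3 each). Nfkb1 made up 18.9%, 17.8% and 19.3% of the sum in the WT libraries and 15.2%, 15.9% and 12.4% in the PGRN KO libraries. Rel made up 17.3%, 16.5% and 16.4% in WT and 13.5%, 14.0% and 8.06% in PGRN KO. Both shares were lower in each PGRN KO library than in any WT library. The share of Nfkb2 went the other way, from 47.2%, 49.8% and 46.7% in WT to 53.6%, 52.0% and 58.3% in PGRN KO, as did that of Rela, from 13.4%, 13.1% and 14.1% to 14.8%, 14.9% and 17.4%. Shares sum to 100%, so a lower share of some genes raises the others, and the FPKM of Nfkb2 and Rela did not differ past the threshold. PGRN KO replicate 6, whose deviations followed gene length, was furthest from WT in the shares of Nfkb1, Rel, Nfkb2 and Rela. Relb held 3.22% of the sum in WT and 3.34% in PGRN KO by mean, with overlapping libraries.

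**Figure D2:**
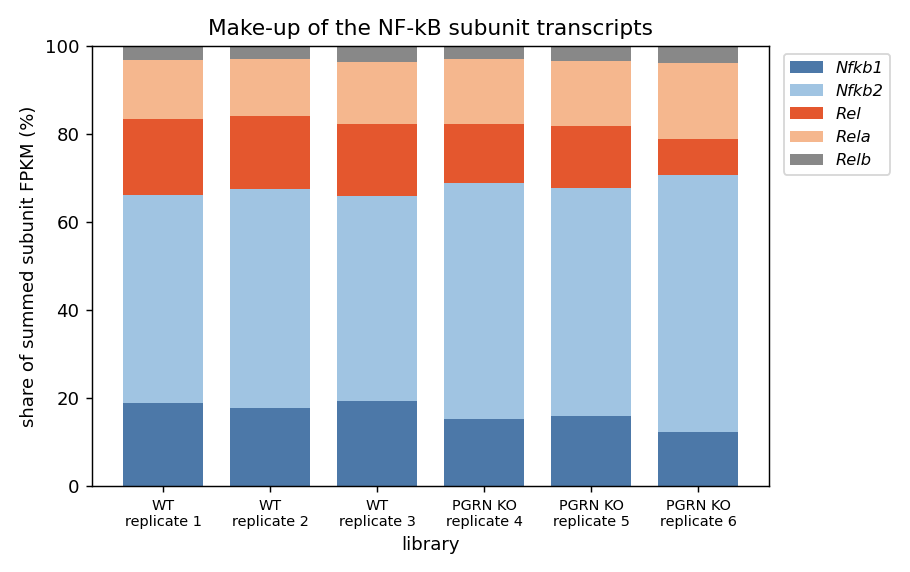
Share of each subunit in the summed FPKM of the 5 subunits (%), 1 bar per library. In the PGRN KO bars the Nfkb1 share is 12.4% to 15.9% and the Rel share 8.06% to 14.0%, against 17.8% to 19.3% and 16.4% to 17.3% in the WT bars, and the Nfkb2 share is larger.

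Ratios between members were compared within libraries, which leaves out the scaling of the library but not a deviation with gene length. Rel and Nfkb1, at 7466 and 12061 bases, have longer gene models than Rela and Nfkb2, at 2716 and 3289. PGRN KO replicate 6, whose deviations followed gene length, was furthest from WT in the ratios of Rel to Rela and Nfkb1 to Nfkb2. Those of Rel to Rela, Nfkb1 to Nfkb2 and Rel to Nfkb1 were chosen after the values of the genes were seen and are given as a description, with no test. The ratio of Rel to Rela was 1.29, 1.26 and 1.17 in WT and 0.913, 0.939 and 0.464 in PGRN KO. Rel was thus above Rela in every WT library and below it in every PGRN KO library. The ratio of Nfkb1 to Nfkb2 was 0.390 ± 0.0290 and 0.267 ± 0.0483 (SD, n = 3 each). The ratio of Rel to Nfkb1, the pair that were both lower, was 0.899 ± 0.0401 and 0.807 ± 0.137, with overlapping libraries.

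Among the inhibitors, Nfkbiz fell, with the largest log2 fold change in size of the 10 genes. Nfkbiz (chr16:55811375-55838899, minus strand) was measured at 418, 500.4 and 334 FPKM in WT and at 269.7, 222 and 198 FPKM in PGRN KO. The highest PGRN KO value lay below the lowest WT value. The log2 fold change was -0.85 ± 0.18 (SE, 95% interval -1.28 to -0.42) with a limma adjusted p of 0.0177 and an exact permutation p of 0.1. The values rested on 17166 to 37137 fragments per library. The adjusted p was 0.0744 without WT replicate 1, 0.0663 without WT replicate 2 and 0.0586 with no filter on low values, while the log2 fold change stayed between -1.001 and -0.70 in all 18 alternatives. Of these, 15 passed, with p from 0.00217 to 0.0744, the lowest being the unadjusted p.

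Tnfaip3 (chr10:19000910-19015657, minus strand) was measured at 181, 225 and 139.9 FPKM in WT and at 138, 118 and 101 FPKM in PGRN KO. The groups did not overlap, but the highest PGRN KO library and the lowest WT library were nearly equal. The log2 fold change was -0.59 ± 0.19 (SE, 95% interval -1.05 to -0.13), the limma adjusted p 0.0666 and the exact permutation p 0.1. The p for Tnfaip3 was between 0.0187 and 0.192 over the 18 alternatives, and 2 passed: sample quality weights (adjusted p = 0.0273) and the unadjusted p.

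Nfkbia, Nfkbib and Nfkbie, the 3 classical cytoplasmic IκB genes, did not pass the test. Nfkbib (chr7:28758251-28767512, minus strand) was measured at 179.75, 198 and 174 FPKM in WT and at 125, 111 and 177 FPKM in PGRN KO. PGRN KO replicates 4 and 5 lay well below WT, and replicate 6 lay within the WT range. The log2 fold change of Nfkbib was -0.44 ± 0.18 (SE, 95% interval -0.86 to -0.03, limma adjusted p = 0.110). Its value depended on single PGRN KO libraries, being -0.64 with an adjusted p of 0.00233 without replicate 6 and -0.30 with an adjusted p of 0.238 without replicate 5. With all 6 libraries it passed on the TPM scale (adjusted p = 0.0447), with quantile normalization (0.0346) and with sample quality weights (0.000817). It was -0.55 with an adjusted p of 0.00695 after that correction for gene length and GC content, and 7 of the 18 alternatives passed (p from 0.000817 to 0.275). Exons of Nfkbib share 314 bases with Ccer2 and 42 with Sirt2 on the opposite strand.

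Nfkbia (chr12:55489410-55492647, minus strand), the inhibitor most quickly destroyed and resynthesised after a stimulus, was measured at 712, 871 and 549 FPKM in WT and at 651, 562 and 714 FPKM in PGRN KO. All 3 PGRN KO values lay within the WT range, and the log2 fold change was -0.13 ± 0.19 (SE, 95% interval -0.57 to 0.31, limma adjusted p = 0.646). Nfkbie (chr17:45555703-45563169, plus strand) was measured at 25.2, 26.5 and 23.7 FPKM in WT and at 25.5, 21.4 and 26.2 FPKM in PGRN KO. The values of Nfkbie interleaved, and its log2 fold change was -0.05 ± 0.11 (SE, 95% interval -0.30 to 0.20, limma adjusted p = 0.769). Neither gene passed in any of the 18 alternatives.

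Ratios were also taken among the inhibitors and to the subunits. The ratio of Nfkbiz to Nfkbia, chosen after the values were seen and given with no test, was 0.587, 0.574 and 0.609 in WT and 0.414, 0.395 and 0.277 in PGRN KO. The limma intervals of the log2 fold changes of these 2 genes overlapped. The remaining 3 ratios were tested. The ratio of Nfkbiz to Nfkb1, the 2 genes that passed the threshold, was 4.87 ± 0.655 in WT against 3.85 ± 0.230 for PGRN KO (SD, n = 3 each, exact permutation p = 0.1). Nfkbia to Rela, an inhibitor and the subunit it holds, stood at 11.4 ± 1.79 and 9.94 ± 0.215 (exact permutation p = 0.4). Nfkbie to Rel was 0.320, 0.317 and 0.351 in WT and 0.437, 0.402 and 0.770 in PGRN KO, higher in each PGRN KO library (exact permutation p = 0.1). The ratios of Nfkbiz to Nfkbia, of Nfkbie to Rel and of Nfkbiz to Nfkb1 also pair a longer with a shorter gene model. In Nfkbiz to Nfkbia and in Nfkbie to Rel, PGRN KO replicate 6 was furthest from WT. In Nfkbiz to Nfkb1 it was replicate 5 (3.67, against 3.78 in replicate 6).

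**Figure D3:**
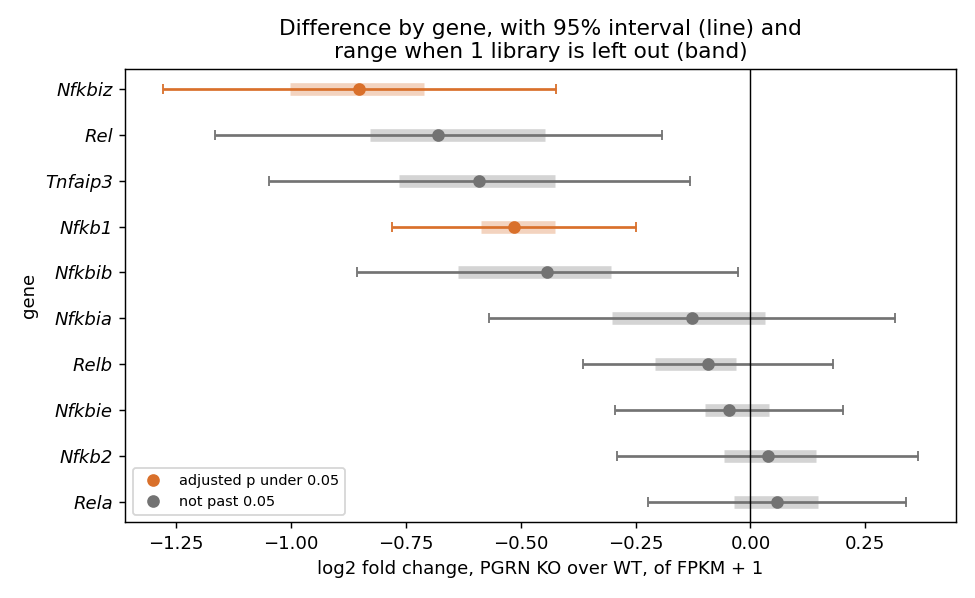
Log2 fold change of FPKM + 1 (PGRN KO over WT) for each of the 10 genes, with the limma 95% interval as a line and the range of the estimate when each library is left out in turn as a band, orange where the adjusted p was under 0.05. The intervals of Nfkbiz, Rel, Tnfaip3, Nfkb1 and Nfkbib lie below 0 and those of the other 5 genes cross it, and the bands of Nfkbia, Nfkbie, Nfkb2 and Rela cross 0.

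Some of the variation among the 10 genes followed the libraries. WT replicate 2 was the highest WT library for all 10 genes, where it was the highest for 41.0% of all tested genes, and WT replicate 3 was the lowest for 9 of the 10, against 40.9% of all. The authors' library size was 0.974, 0.925 and 1.03 times the counted fragments in WT replicates 1, 2 and 3. It was 1.05, 1.09 and 0.9995 times in PGRN KO replicates 4, 5 and 6, so the deposited scaling also differed between the genotypes. When levels were taken per counted fragment instead, WT replicate 2 was the highest for 7 and WT replicate 3 the lowest for 8. The median log2 fold change over all tested genes was -0.03 as deposited and 0.06 with voom on counted fragments. With voom it was -0.42 for Nfkb1 and -0.75 for Nfkbiz. In PGRN KO, replicate 6 was the highest library for the 6 genes with gene models of 3885 bases or less and the lowest for the 4 genes with models of 5018 bases or more, while over all tested genes it was the highest of its group for 47.6% and the lowest for 40.2%. These 4 genes, Nfkb1, Rel, Nfkbiz and Tnfaip3, are the same ones whose groups did not overlap. Without PGRN KO replicate 6 and with the correction for gene length and GC content, the log2 fold changes were -0.36 for Nfkb1, -0.39 for Rel, -0.70 for Nfkbiz and -0.43 for Tnfaip3, and the adjusted p was 0.00673, 0.0175, 0.0242 and 0.121.

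The genes whose profiles over the 6 libraries were most like that of Nfkbiz were Ptafr, Lif and Bcl2l11, with Pearson correlations of log2(FPKM + 1) of 0.999, 0.997 and 0.996. Ptafr encodes the receptor of platelet-activating factor, Lif a cytokine of the interleukin-6 family and Bcl2l11 a protein that promotes cell death. A correlation above 0.9 with Nfkbiz was found for 723 of the other 8881 genes (8.14%), and the 6 points share the difference between genotypes and the scaling of the libraries.

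The other genes of the pathway were followed from the receptor side inwards. Over all tested genes, 10.4% passed as higher and 13.8% as lower, and with voom 1250 of 8882 as higher and 8.55% as lower. Of 11 genes for the IκB kinase and the kinases upstream, none passed the limma test and the median log2 fold change was -0.19. With voom 1 was higher, Ikbkg, the regulatory subunit of the kinase, named after its value was seen. In the main test Ikbkg had a log2 fold change of 0.27 ± 0.08 (SE, limma adjusted p = 0.0568). Tbk1, a kinase related to the IκB kinases, was at 33.7 ± 1.33 FPKM in WT and 34.2 ± 2.87 in PGRN KO, and Tab2, an adaptor of the kinase Map3k7, at 27.4 ± 2.01 and 23.5 ± 4.81 (SD, n = 3 each). On the log2 scale the difference of Tab2 was -0.23, and it was -0.06 without PGRN KO replicate 6. Of the 4 genes of the Card9-Bcl10-Malt1 route, 1 fell. Bcl10, the filament-forming adaptor of that complex, was at 33.5, 36.4 and 33.6 FPKM in WT and at 23.8, 24.2 and 24.7 FPKM in PGRN KO. The groups were well apart, with a log2 fold change of -0.49 ± 0.08 (SE, limma adjusted p = 0.00785). Malt1, the protease of the complex, had a log2 fold change of -0.56 ± 0.26 (SE, limma adjusted p = 0.152), with values of 95.8, 91.7 and 49.9 FPKM in PGRN KO and a log2 fold change of -0.26 without replicate 6 (-0.33 with the correction for gene length and GC content). Prkcd, the kinase that acts on Card9, had one of -0.14 ± 0.08 (SE, limma adjusted p = 0.224).

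Of 11 genes for ubiquitin ligases and their partners 3 rose and 1 fell, with a median of 0.09. With voom 4 were higher and 0 lower. These counts stand beside 10.4% higher and 13.8% lower over all tested genes, and with voom 1250 of 8882 higher and 8.55% lower. Rnf31 and Rbck1, both of the linear ubiquitin assembly complex, rose from 8.75 ± 0.538 to 14.6 ± 1.61 FPKM and from 3.68 ± 0.367 to 5.65 ± 0.492 FPKM (SD, n = 3 each), with log2 fold changes of 0.68 ± 0.11 and 0.51 ± 0.10 (SE, limma adjusted p = 0.00665 and 0.0151). Birc2, a ubiquitin ligase of the tumour necrosis factor receptor complex, rose from 2.25 to 3.21 FPKM (0.38 ± 0.10 SE, limma adjusted p = 0.0360). Ripk1, the kinase that carries these chains, fell by 0.33 on the log2 scale (limma adjusted p = 0.0415). Its call was lost in 9 of 18 alternatives (p from 0.00899 to 0.192), among them the correction for gene length and GC content (-0.18), voom, the TPM scale and leaving out any WT library or PGRN KO replicate 5. Birc2 passed in 10 of 17 and Rbck1 in 15 of 17 (p from 0.00708 to 0.122 and from 0.00162 to 0.0697). With a library left out, Birc2 passed only without PGRN KO replicate 6, and Rbck1 was lost without WT replicate 1 or 2. Birc3 and Traf1, both of the same receptor complex, had log2 fold changes of -0.12 ± 0.14 and -0.19 ± 0.15 (SE, limma adjusted p = 0.541 and 0.366), which with libraries left out ranged from -0.24 to -0.02 and from -0.31 to -0.08.

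Among 3 further IκB family genes, Nfkbid fell, where 13.8% of all tested genes passed as lower. Nfkbid encodes IκBNS, a nuclear IκB protein like IκBζ, and was measured at 434, 481 and 410 FPKM in WT and at 241, 220.5 and 280 FPKM in PGRN KO. The log2 fold change was -0.84 ± 0.12 (SE, limma adjusted p = 0.00569), close in size to the -0.85 of Nfkbiz. Bcl3, another nuclear family member, had a log2 fold change of -0.34 ± 0.10 with separate groups (limma adjusted p = 0.0511), and 7 of the 18 alternatives passed (p from 0.00535 to 0.166). Nfkbil1 was at 4.38 ± 0.605 FPKM in WT and 5.42 ± 1.77 in PGRN KO, with overlapping groups and a log2 fold change of 0.22. Dropping PGRN KO replicate 6 gave 0.025, dropping WT replicate 3 gave 0.133 and dropping PGRN KO replicate 5 gave 0.428.

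Of 13 other brakes on the pathway 12 were tested, of which 2 rose and 2 fell, with a median of -0.24. With voom 3 were higher and 2 lower. Among all tested genes 10.4% passed as higher and 13.8% as lower, and with voom 1250 of 8882 as higher and 8.55% as lower. Tnip3, a ubiquitin-binding partner of the Tnfaip3 protein, fell from 23.9, 28.1 and 19.9 FPKM in WT to 12.1, 10.5 and 11.5 FPKM in PGRN KO. The groups were far apart, and the fitted difference was -1.004 ± 0.14 on the log2 scale (SE, limma adjusted p = 0.00433). Its relatives behaved differently. Tnip2 rose by 0.38 ± 0.11 (SE, limma adjusted p = 0.0495) and Tnip1 had a log2 fold change of -0.24 ± 0.15 (SE, limma adjusted p = 0.284). Zc3h12a, an RNase that degrades inflammatory transcripts, fell from 338 ± 24.9 to 258 ± 14.1 FPKM (-0.39 ± 0.10 on the log2 scale, SE, limma adjusted p = 0.0345). Pdlim2, a ligase for nuclear Rela, rose from 1.60 to 2.89 FPKM (0.57 ± 0.14 SE, limma adjusted p = 0.0280), and Tank had a log2 fold change of -0.31 ± 0.12 (SE, limma adjusted p = 0.0989). The values of Tnip1 and Tank ranged from -0.34 to -0.12 and from -0.37 to -0.20 with libraries left out, being smallest in size when WT replicate 2 and PGRN KO replicate 6 were left out, respectively. The calls of Tnip2, Zc3h12a and Pdlim2 passed in 10 of 18, 11 of 18 and 12 of 17 alternatives (p from 0.00708 to 0.162, from 0.00316 to 0.140 and from 0.00466 to 0.102). All 3 were lost with no filter on low values and on leaving out any WT library or PGRN KO replicate 4. Zc3h12a was also lost without PGRN KO replicate 5 and with quantile normalization, and Tnip2 with a pseudocount of 0.1 or 0.01 or no variance trend.

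Of 22 genes known as NF-κB targets, 1 rose and 4 fell, and the median log2 fold change was -0.30. Over all tested genes 10.4% were higher and 13.8% lower. With voom 1 was higher and 7 lower, where 1250 of 8882 tested genes were higher and 8.55% lower. At an unadjusted p under 0.05, 8 were lower, where 22.3% of all tested genes were lower. Ptgs2, the inducible cyclooxygenase, fell from 5606, 6346 and 4452 FPKM in WT to 3730, 3460 and 2416 FPKM in PGRN KO (-0.78 ± 0.21 on the log2 scale, SE, limma adjusted p = 0.0392). Icam1, an adhesion molecule, Gadd45b, a stress response gene, and Cd83, a surface protein of activated antigen-presenting cells, fell by 0.65, 0.65 and 0.60 on the log2 scale (limma adjusted p = 0.0133, 0.0250 and 0.0117). Cd40, a costimulatory receptor, rose instead, from 16.7, 20.4 and 15.1 FPKM to 38.4, 27.3 and 48.8 FPKM (1.06 ± 0.21 SE, limma adjusted p = 0.0149). Ptgs2 passed in 10 of 18 alternatives and Gadd45b in 12 (p from 0.00478 to 0.184 and from 0.000387 to 0.1). With a library left out, both passed only without PGRN KO replicate 6. Both were also lost with no filter, and Ptgs2 on the TPM scale and with quantile normalization. Icam1, Cd83 and Cd40 passed in 16, 16 and 15 (p from 0.000719 to 0.0605, from 0.000763 to 0.0643 and from 0.00138 to 0.0637), being lost without WT replicate 1, Icam1 and Cd83 also without WT replicate 2 and Cd40 without WT replicate 3 or with no filter. The most abundant targets did not pass: Tnf had a log2 fold change of -0.29 ± 0.22 (SE, limma adjusted p = 0.365) with overlapping groups and values of -0.49 to -0.11 with libraries left out, and the chemokine gene Cxcl2 one of -0.56 ± 0.18 (SE, limma adjusted p = 0.0616) with separate groups, and 9 of 18 alternatives passed for it (p from 0.00430 to 0.316). Of all the named genes outside the 10, Bcl10, Nfkbid, Rnf31 and Tnip3 passed in each of the 18 alternatives.

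**Figure D4:**
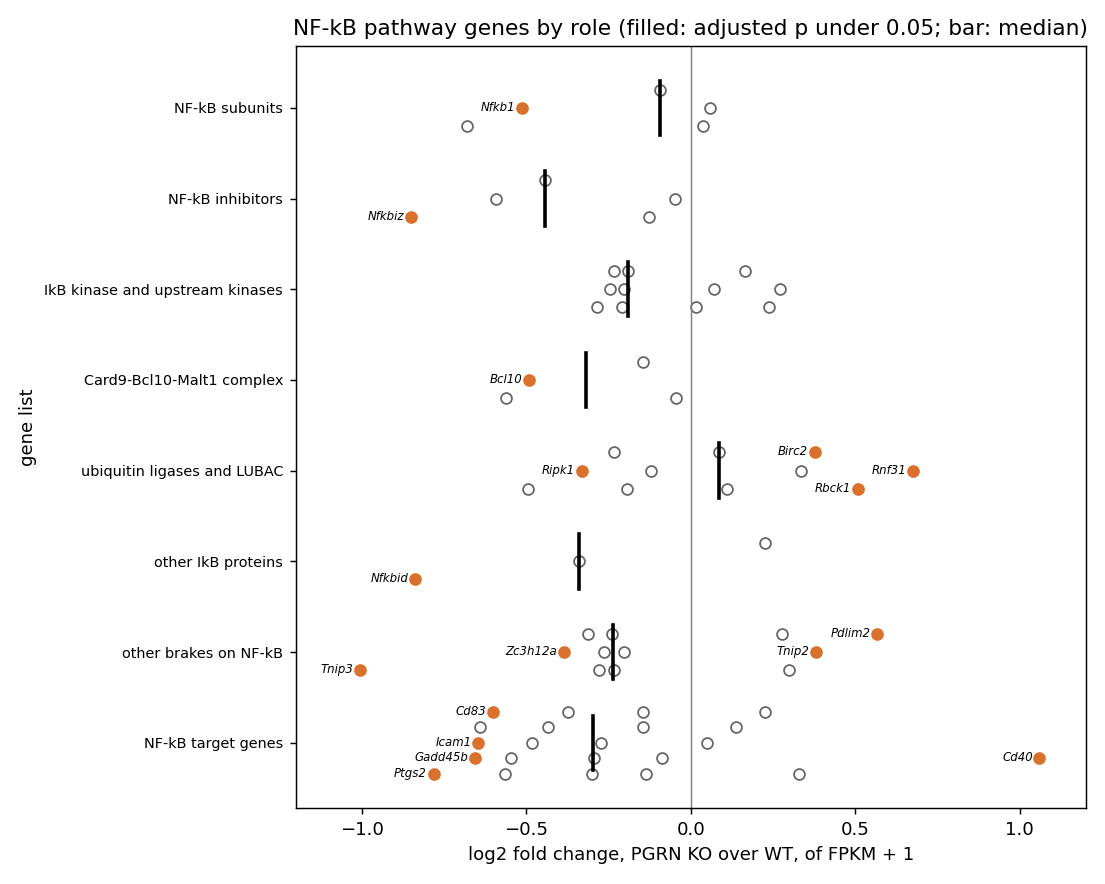
Log2 fold change of FPKM + 1 (PGRN KO over WT) for the tested genes of each list, 1 point per gene, filled and named where the limma adjusted p was under 0.05, with a bar at the median of the list. The medians lie between -0.44 for the 5 inhibitors and 0.09 for the ubiquitin ligases, the one list above 0, and called genes lie on both sides of 0 among the ubiquitin ligases, the other brakes and the targets.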

How the data were processed

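The authors aligned reads to the mouse genome, counted fragments per gene and deposited FPKM. The submitters' processing notes name CASAVA, HISAT2 2.0.5, featureCounts 1.5.0-p3, DESeq2 1.20.0 and the builds mm10 and GRCm38. The study's methods name other versions and another counter. The sources used here do not give the annotation release or the strand setting. By identifier, 99.93% of the genes were found in GENCODE M21, 98.26% of these at the same coordinates. FPKM times gene length gave whole fragments, within 0.001 of a step, for 100% of values above 0, from which depth was summed.

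Every gene whose mean FPKM reached 1 was tested on log2(FPKM + 1), a scale that understates changes of low genes. The test was limma 3.58.1 in R 4.3.3 (empirical Bayes, mean-variance trend, no covariates, two-sided, Benjamini-Hochberg adjustment over all tested genes, threshold 0.05). It was also run on simulated data with larger changes than those of the 10 genes. The simulated data had no library that stood apart and no trend with gene length, so they do not cover these conditions. The authors used DESeq2 on counts, whereas the values here were FPKM. Single ratios were compared by exact permutation in scipy 1.17.1. The 10 genes, the other pathway lists and the markers were chosen with earlier results of these data known. All 10 were named, and of the other lists every gene past the threshold and the 2 of highest mean FPKM among the rest; the 3 genes most like the one with the largest change were named by correlation. No gene list was tested as a set.

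The 18 alternatives were pseudocounts of 0.1 and 0.01, no filter, a mean FPKM of at least 5, a TPM scale, quantile normalization, sample quality weights, no variance trend, limma voom on recovered fragments, a loess correction (span 0.5) for gene length and GC content, unadjusted p, leaving out each library in turn, and, chosen after seeing the data, the correction without PGRN KO replicate 6. Promoter sequences came from RefSeq (GRCm38.p6). No protein sequence was used here.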

Additional observations from a re-analysis of the deposited data

How the results depend on the processing

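No paired analysis was possible because no replicate number occurs in both genotypes. Of the 10 genes, 2 were called lower in PGRN KO, where 13.8% of all tested genes were lower. This count was 1 with no filter on low values (3.33% of 22912 genes lower), 6 with sample quality weights (27.8%), 4 after correcting libraries for gene length and GC content (16.9%), 5 with that correction on leaving out PGRN KO replicate 6 (22.0%, chosen after seeing the data) and 5 at an unadjusted p under 0.05 (22.3%). Leaving out single libraries gave 0 to 5: it was 0 without WT replicate 1 or 2 (4.30% and 4.99%), 1 without WT replicate 3 (5.47%), and 5 when PGRN KO replicate 6 was dropped (25.1%). All calls over the tested genes numbered 2151, and 713 to 3668 with a library left out, 1366 with no filter, 2931 with the correction and 4225 with quality weights. The sign turned only for genes that did not pass: Nfkb2 with the correction (-0.009) and when libraries were left out (-0.057 to 0.142, below 0 without WT replicate 3, -0.057, or PGRN KO replicate 6, -0.029), Rela with quality weights (-0.008), the correction (-0.017), the correction without PGRN KO replicate 6 (-0.007) and with libraries left out (-0.035 to 0.146), Relb with voom (0.001), Nfkbia with libraries left out (-0.301 to 0.032), Nfkbie on the TPM scale (0.006), with quantile normalization (0.003), with voom (0.051) and with libraries left out (-0.099 to 0.040), Tbk1 with libraries left out (-0.048 to 0.062) and Tnf with quantile normalization (0.037). The cause was not tested. With 3 libraries a group, 1 of which stood apart, differences of the size of that of Rel or Tnfaip3 lay near the threshold, and exact tests could not go below 0.1. All other results of the 10 genes kept their direction, 19 passing under an alternative though not as reported and 7 the reverse. For the other named genes these numbers were 19 and 59, and the calls most often lost were those of Ripk1, Birc2, Tnip2, Ptgs2, Zc3h12a, Pdlim2 and Gadd45b.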
